A study of Homo sapiens with 4 samples.

Results

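The WNT and beta-catenin pathway is described here through 44 named genes, listed by their roles in it. They cover receptors and their adaptors, the complex that destroys beta-catenin, the transcription factors it works with, regulators of receptor turnover and ligand release, secreted inhibitors and feedback genes. Of the 44 genes, 41 were measured, out of 22395 genes with a probe set of 1 gene symbol, and each was measured by 1 probe set. TCF7 and PORCN had no probe set under their symbols here, and the probe set of FZD8 also names a microRNA gene, so no value is given for these 3.

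Huh7 cells are an established human line of hepatocellular carcinoma. The cells were transfected with pcFLAG-hSTYK1, which carries human STYK1, the gene of a membrane-bound kinase whose other name is NOK, and the controls with pcFLAG. RNA of 2 STYK1 and 2 control samples was profiled on biotin-labelled Affymetrix whole-transcript arrays, so that transcripts can be compared with and without overexpressed STYK1. The labels give neither the time after transfection nor the share of cells that took up the plasmid, and they do not say whether replicates were separate cultures. The p-values therefore cover the spread between these samples alone, which may be technical. A lower signal in such bulk RNA cannot tell fewer expressing cells from less RNA per cell.

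In the absence of a WNT ligand, AXIN and APC hold beta-catenin next to the kinases CK1 and GSK3, which phosphorylate it and send it to the proteasome. A ligand that joins a Frizzled receptor to the co-receptors LRP5 or LRP6 recruits Dishevelled, the complex stops working, and beta-catenin reaches TCF/LEF factors in the nucleus. Several target genes of that step, among them AXIN2, NKD1, ZNRF3, RNF43 and NOTUM, encode inhibitors of the pathway, and in liver the pathway sets the gene programme of hepatocytes around the central vein and is often active in hepatocellular carcinoma.

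All values are log2 signals as deposited, and signals were treated as background below a floor, the 95th percentile over 462 probe sets of olfactory receptors, which stood at 0.746 to 0.775 on the 4 arrays. Array medians lay between 0.615 and 0.629, and precision is limited by the small number of arrays. For pathway genes above the floor, the standard error of the group difference had a median of 0.127 log2 units. STYK1 itself read 7.40 and 7.86 in STYK1 replicates 1 and 2, against 0.264 and 0.613 in control replicates 1 and 2, the controls both under the floor. The label of the cells was checked against their markers, and 9 of 9 measured hepatocyte and liver cancer genes, such as ALB and AFP, lay above the floor on all 4 arrays, while 0 of 4 endothelial markers did on any array. Of the cholangiocyte markers SOX9, EPCAM and KRT19 lay above the floor on all 4 arrays and KRT7 and CFTR on none, and of the immune markers LYZ, CD68 and CD14 did on all 4 and PTPRC and CD3E on none. Of the fibroblast and stellate markers COL1A1 and PDGFRB lay above it on some arrays and DCN and LUM on none.

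No gene of the pathway passed the test. By limma with adjustment over all 53617 probe sets, 0 of 41 had an adjusted p under 0.05, where 1 probe set, or 0.00187% of all, did. That probe set was the one of the transfected STYK1, at an adjusted p of 0.0373 (limma). The adjusted p-values of the 41 lay between 0.98 and 1. At an unadjusted p under 0.05 there were 2 of 41, FRAT2 and DVL2, both lower in the STYK1 arrays, where 4.64% of all probe sets reached that level and 1.91% did so on the lower side. The pathway count is near that background. The groups did not overlap for 10 of 41, of which 3 were higher and 7 lower in STYK1, where 32.8% of all probe sets did not overlap, 17.4% being higher and 15.4% lower. Of the 37 genes above the floor on at least 1 array, 7 differed by more than the distance between replicates in either group. These are 18.9%, against 21.9% of all genes above the floor. The median difference over the 41 was −0.02 log2 units, against 0.002 over all genes, with 19 higher and 22 lower.

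Above the floor on at least 1 array were 37 genes, 30 of them on all 4 arrays. For each of these 30 the 95% interval of the difference in signal (limma) lay within a 2-fold change in either direction, and for 24 it lay within 1.5-fold. The 6 whose interval reached 1.5-fold were FZD3, FZD6, DVL2, CSNK1A1, FRAT2 and RNF43. For genes just above the floor, such as FZD1, FRAT1 and LEF1, the signal had little room to fall. Their intervals describe the signal and do not show that the transcript was stable. FZD2, FZD10, DKK4 and SFRP1 lay under the floor on every array, where an interval of the signal says little of the transcript, with signals of 0.392 to 0.638 in the STYK1 arrays and 0.322 to 0.702 in the controls.

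**Figure D1:**
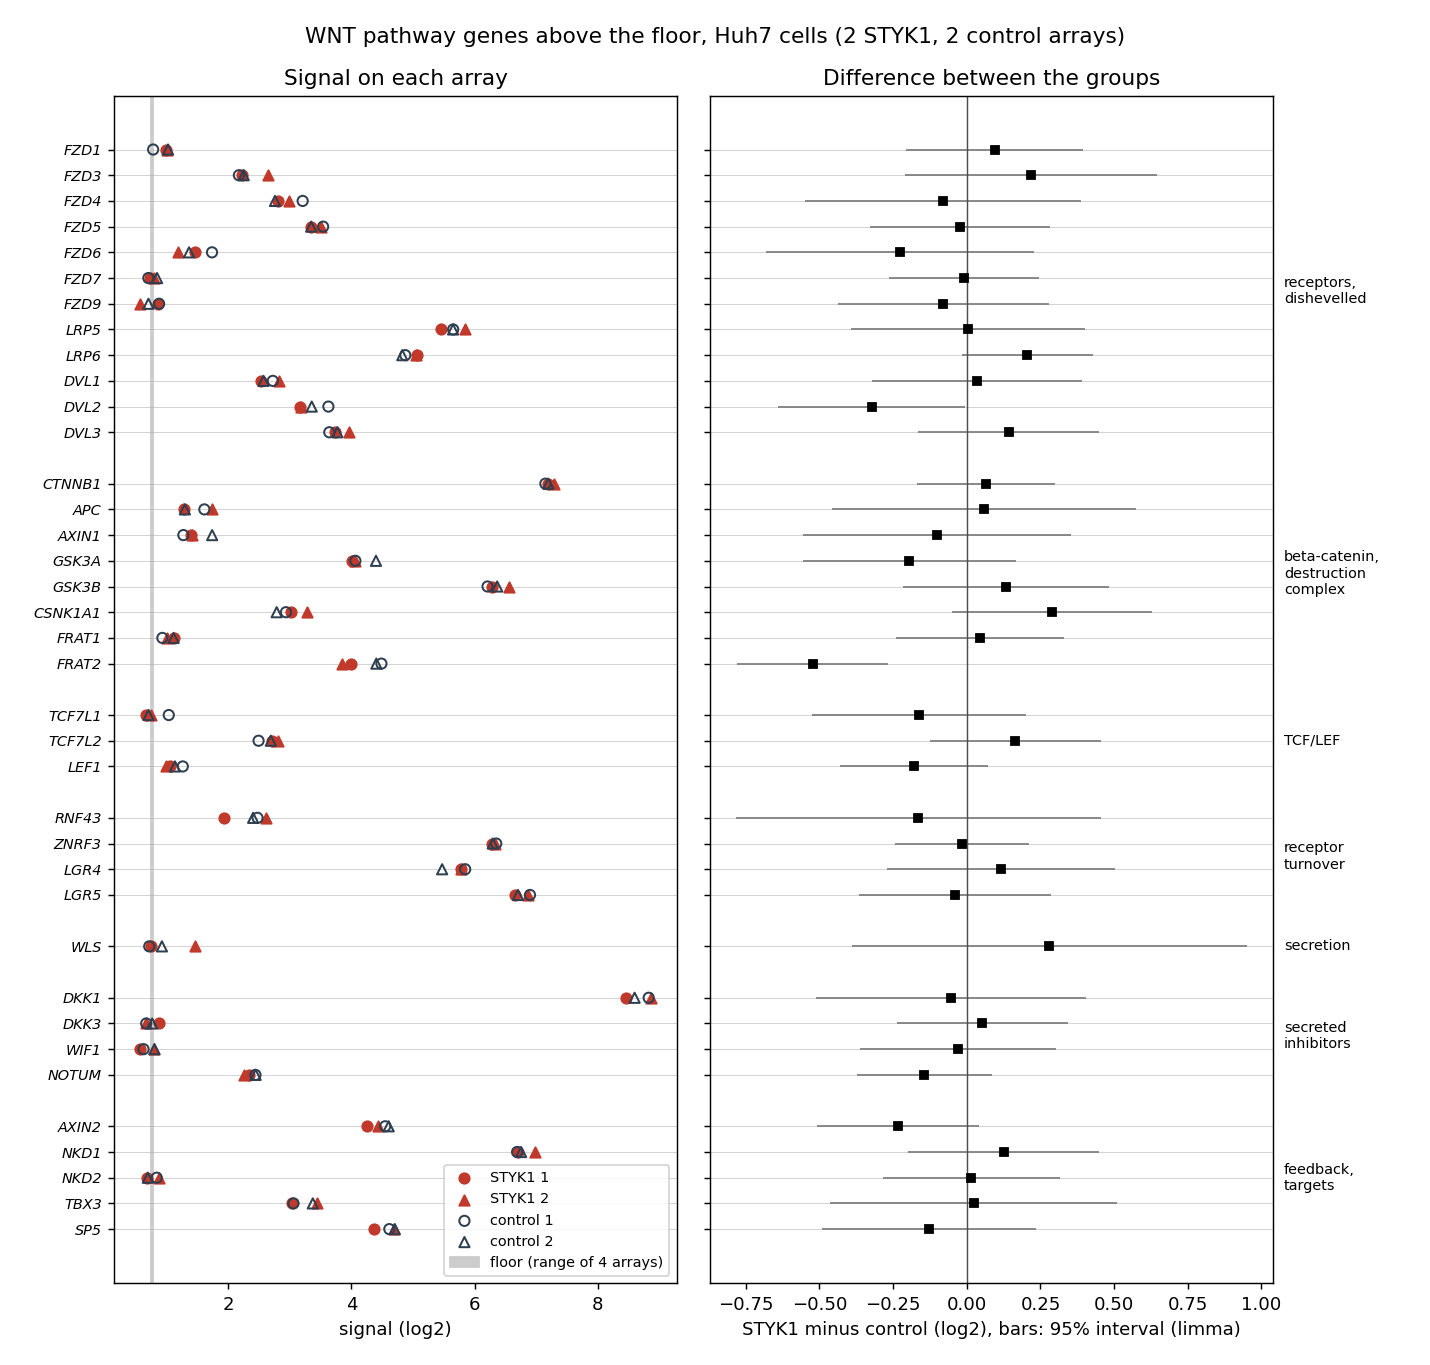
Left, the log2 signal of the 37 pathway genes above the floor on each array, with STYK1 arrays filled, control arrays open and the floor as a grey band; right, the STYK1 minus control difference with its 95% interval (limma). FRAT2 has the largest difference, −0.52, and the intervals of FRAT2 and DVL2 alone leave out 0.

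Among the ligand receptors, the Frizzled genes measured above the floor on every array were FZD1, FZD3, FZD4, FZD5 and FZD6, and none of them parted the groups. FZD5 read 3.34 and 3.50 in the STYK1 arrays, against 3.54 and 3.35 in the controls, and the 4 values interleave. FZD4, a receptor that also binds the non-WNT ligand norrin, read 2.814 and 2.996 in the STYK1 arrays, against 3.210 and 2.761 in the controls. The controls stood at both ends of that range.

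FZD3 read 2.22 and 2.64 in the STYK1 arrays, against 2.18 and 2.25 in the controls, so STYK1 replicate 2 stood above the other three, which lay close together. FZD6 read 1.47 and 1.19 in the STYK1 arrays, against 1.74 and 1.37 in the controls, a difference of −0.23. Its groups overlapped. FZD1 read 0.994 and 1.01 in the STYK1 arrays, against 0.785 and 1.03 in the controls, close to the floor. FZD7, at 0.7376 and 0.7997 in the STYK1 arrays against 0.707 and 0.848 in the controls, and FZD9, at 0.856 and 0.574 in the STYK1 arrays against 0.881 and 0.708 in the controls, were above the floor on 2 arrays each and so lie at background.

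LRP6, the co-receptor that is phosphorylated when a ligand binds, was measured at 5.06 and 5.05 in the STYK1 arrays, against 4.87 and 4.83 in the controls. Its groups did not overlap, and the difference of 0.21 was larger than the distance between replicates in either group, but it did not pass (limma, standard error 0.085, unadjusted p = 0.0625, adjusted p = 0.98). Its paralog LRP5 read 5.46 and 5.85 in the STYK1 arrays, against 5.65 and 5.65 in the controls. Both controls fell between the 2 STYK1 values, and the difference was 0.003 with a 95% interval of −0.39 to 0.40.

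Dishevelled proteins carry the signal from the receptors to the destruction complex. DVL2 read 3.16 and 3.18 in the STYK1 arrays, against 3.63 and 3.36 in the controls, or 3.17 ± 0.01 against 3.49 ± 0.19 (SD, n = 2 each). The STYK1 arrays lay close together and both below the controls, by 0.32 log2 units with a standard error of 0.12, but DVL2 did not pass (limma, unadjusted p = 0.0477, adjusted p = 0.98). Control replicate 1 set much of the size, since the difference was −0.19 without it and −0.46 without control replicate 2. In the alternative fits of all 4 arrays, described below, the unadjusted p of DVL2 ran from 0.0384 to 0.100 (limma).

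The other Dishevelled genes did not share this order. DVL1 read 2.54 and 2.83 in the STYK1 arrays, against 2.73 and 2.58 in the controls, and DVL3 read 3.74 and 3.96 in the STYK1 arrays, against 3.64 and 3.77 in the controls. The groups overlapped for both, with differences of 0.03 and 0.14.

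FRAT2 had the largest difference of the 41 genes. FRAT proteins bind GSK3 and can take it away from AXIN, and FRAT2 lies next to its paralog FRAT1 on chromosome 10 in the RefSeq order of protein-coding genes. The signal of FRAT2 was 3.99 and 3.86 in the STYK1 arrays, against 4.49 and 4.40 in the controls, or 3.92 ± 0.10 against 4.45 ± 0.06 (SD, n = 2 each). Both STYK1 arrays lay below both controls, by more than either group's own distance between replicates. The difference of −0.52, with a 95% interval of −0.78 to −0.27, made FRAT2 1.44-fold higher in the controls, and it did not pass over all probe sets (limma, standard error 0.098, unadjusted p = 0.00368, adjusted p = 0.98).

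Leaving out 1 array at a time kept the FRAT2 difference between −0.59 and −0.46, with adjusted p-values of 0.956 to 1 (limma). FRAT1 read 1.13 and 1.01 in the STYK1 arrays, against 0.934 and 1.12 in the controls, so the neighbouring paralog overlapped between the groups, at a difference of 0.04 with a 95% interval of −0.24 to 0.33. The promoter of FRAT2 is shown because the gene differed most. It is the stretch of 250 bases before the annotated start, chr10:97334730-97334979 on the minus strand (RefSeq, GRCh38.p14), of which 70.4% are G or C, and it holds no match to the TCF/LEF letters described below, which would stand in capitals.
FRAT2: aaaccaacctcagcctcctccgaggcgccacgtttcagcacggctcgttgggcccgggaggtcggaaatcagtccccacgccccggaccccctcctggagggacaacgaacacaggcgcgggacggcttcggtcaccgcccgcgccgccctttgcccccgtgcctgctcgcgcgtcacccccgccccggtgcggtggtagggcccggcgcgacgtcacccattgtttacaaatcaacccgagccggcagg

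**Figure D2:**
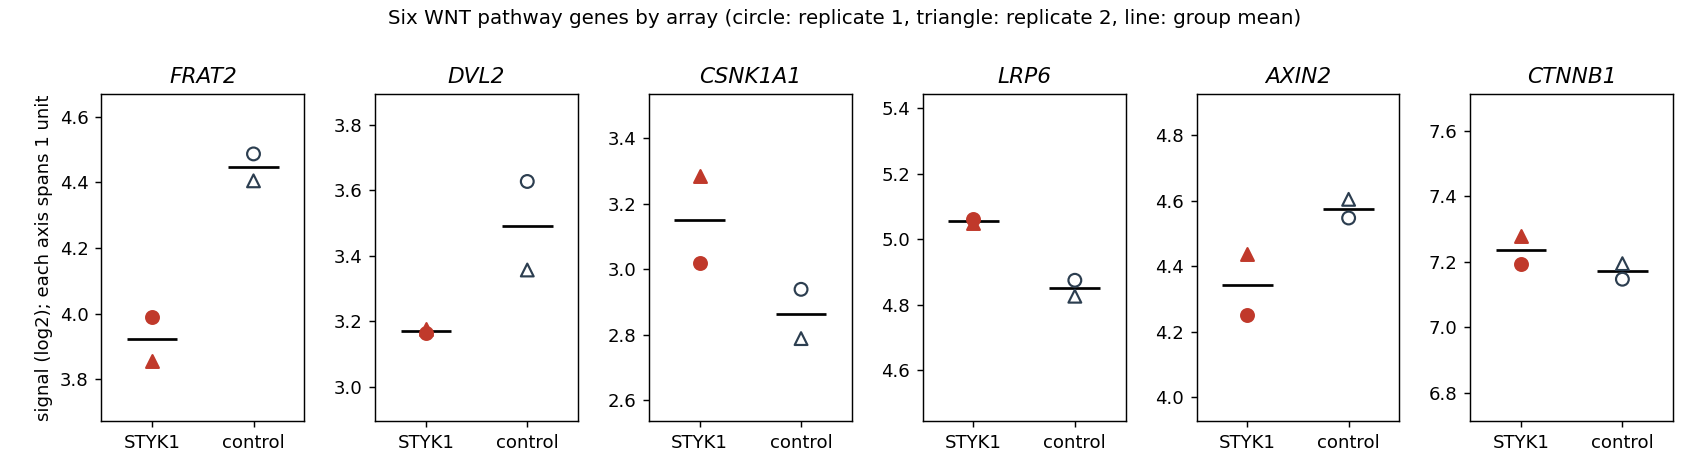
Log2 signal of 6 pathway genes on each array, STYK1 on the left and control on the right of each panel, with lines at the group means and each axis spanning 1 log2 unit. FRAT2, DVL2 and AXIN2 lie lower and CSNK1A1 and LRP6 higher in both STYK1 arrays, while CTNNB1 overlaps between the groups.

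CTNNB1, which encodes beta-catenin, read 7.19 and 7.28 in the STYK1 arrays, against 7.15 and 7.19 in the controls. The difference of 0.07 had a 95% interval of −0.17 to 0.30, and the groups overlapped. An array measures its RNA only, and the pathway acts mainly on the stability of the protein. CSNK1A1 encodes the CK1 alpha kinase that places the first phosphate on beta-catenin, and it read 3.02 and 3.28 in the STYK1 arrays, against 2.94 and 2.79 in the controls.

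Both STYK1 arrays lay above both controls for CSNK1A1, by 0.29 log2 units with a standard error of 0.13, and the gene did not pass (limma, unadjusted p = 0.08, adjusted p = 0.98). STYK1 replicate 2 carried more of it, since the difference was 0.16 without that array and 0.42 without STYK1 replicate 1. The 2 GSK3 kinases, which add the phosphates that mark beta-catenin for destruction, had differences of opposite sign, neither past the test. GSK3B read 6.28 and 6.56 in the STYK1 arrays, against 6.21 and 6.37 in the controls, and the groups overlapped.

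GSK3A read 4.018 and 4.057 in the STYK1 arrays, against 4.065 and 4.399 in the controls. Its groups did not overlap, by a narrow margin. Control replicate 2 stands above the other three, which lie close together, and the difference of −0.19 was smaller than the distance between the controls. The scaffolds APC and AXIN1 showed no separation. APC read 1.29 and 1.74 in the STYK1 arrays, against 1.62 and 1.30 in the controls, and AXIN1 read 1.39 and 1.42 in the STYK1 arrays, against 1.27 and 1.74 in the controls. Each control pair spanned a wider range than the difference between the groups, which was 0.06 for APC and −0.10 for AXIN1.

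TCF/LEF factors bring beta-catenin to DNA. TCF7L2, a main factor of this family in liver, read 2.71 and 2.81 in the STYK1 arrays, against 2.49 and 2.69 in the controls, and LEF1 read 1.06 and 0.985 in the STYK1 arrays, against 1.27 and 1.14 in the controls. The groups did not overlap for either gene, TCF7L2 being higher by 0.17 and LEF1 lower by 0.18 on the log2 scale, and neither passed (limma, unadjusted p = 0.201 for TCF7L2 and 0.122 for LEF1, adjusted p = 0.98 for both). For TCF7L2 the difference was smaller than the distance of 0.199 between the controls. TCF7L1, mostly a repressor, read 0.668 and 0.754 in the STYK1 arrays, against 1.04 and 0.709 in the controls, and only control replicate 1 lay above the floor.

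The genes of receptor turnover were all above the floor on every array. ZNRF3 and RNF43 are ubiquitin ligases that remove Frizzled receptors from the cell surface, and LGR4 and LGR5 are the R-spondin receptors that hold these ligases back. For ZNRF3 the signals were 6.28 and 6.33 in the STYK1 arrays, against 6.35 and 6.29 in the controls, and the difference was −0.02 with a 95% interval of −0.24 to 0.21. LGR5, itself a target gene of beta-catenin, read 6.66 and 6.86 in the STYK1 arrays, against 6.90 and 6.70 in the controls. The groups overlapped in part for both genes.

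LGR4 read 5.78 and 5.77 in the STYK1 arrays, against 5.85 and 5.47 in the controls, so control replicate 2 stood below the other three. RNF43 read 1.94 and 2.62 in the STYK1 arrays, against 2.48 and 2.41 in the controls. The 2 STYK1 arrays lay on either side of the controls and differed by 0.675 from each other, against −0.16 between the groups. Of the genes of ligand release, WLS, which carries WNT proteins to the cell surface, read 0.747 and 1.46 in the STYK1 arrays, against 0.721 and 0.927 in the controls. STYK1 replicate 2 alone stood clearly above the floor, and the groups overlapped.

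Secreted inhibitors were present in part. DKK1, which blocks LRP5 and LRP6 and is also a target gene of the pathway, read 8.45 and 8.86 in the STYK1 arrays, against 8.82 and 8.59 in the controls. The STYK1 arrays enclosed both controls, and the difference was −0.05 with a 95% interval of −0.51 to 0.40. NOTUM, an enzyme that removes the lipid from WNT ligands, read 2.34 and 2.26 in the STYK1 arrays, against 2.44 and 2.45 in the controls. Its groups did not overlap and the difference of −0.14 exceeded the distance between replicates, but it did not pass (limma, unadjusted p = 0.163, adjusted p = 0.98).

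DKK3 read 0.874 and 0.672 in the STYK1 arrays, against 0.672 and 0.769 in the controls, and WIF1, which binds WNT ligands, read 0.571 and 0.805 in the STYK1 arrays, against 0.629 and 0.806 in the controls. Both lay at the floor.

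Feedback genes report on the activity of the pathway, because beta-catenin and TCF/LEF factors drive their transcription in many tissues. AXIN2, a scaffold of the destruction complex that is made in response to WNT, read 4.250 and 4.437 in the STYK1 arrays, against 4.548 and 4.605 in the controls, or 4.34 ± 0.13 against 4.58 ± 0.04 (SD, n = 2 each). Both STYK1 arrays lay below both controls, by 0.23 log2 units with a standard error of 0.10, and AXIN2 did not pass (limma, unadjusted p = 0.0801, adjusted p = 0.98).

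SP5, a transcription factor that represses other WNT targets, read 4.37 and 4.70 in the STYK1 arrays, against 4.62 and 4.70 in the controls. STYK1 replicate 1 was the lowest, and STYK1 replicate 2 fell between the controls. NKD1, an inhibitor that binds Dishevelled, went the other way at 6.71 and 6.98 in the STYK1 arrays, against 6.69 and 6.75 in the controls, with STYK1 replicate 2 standing apart. TBX3, a T-box factor known as a beta-catenin target in liver tumours, read 3.04 and 3.44 in the STYK1 arrays, against 3.06 and 3.37 in the controls. In both groups replicate 2 read above replicate 1 for TBX3.

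NKD2 read 0.689 and 0.882 in the STYK1 arrays, against 0.843 and 0.698 in the controls, and was above the floor on 2 arrays. Of the 5 feedback and target genes, 3 were higher and 2 lower. Their median difference of 0.015 is that of NKD2 itself, a gene near the floor. ZNRF3, RNF43, NOTUM, LGR5 and DKK1, also named here as target genes, are counted under other roles. All of them were lower in the STYK1 arrays, with differences of −0.16 to −0.02. Their groups overlapped except for NOTUM, and none passed.

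Promoters were searched for the letters to which TCF/LEF factors bind, CTTTG followed by AA, AT, TA or TT, on both strands of the window from 250 bases before to 50 bases after each annotated start. The RefSeq promoter table (GRCh38.p14) held 37 promoters of 29 of the 44 genes. It held none for the target genes AXIN2, NKD1, TBX3, ZNRF3, LGR5 and NOTUM, so the share of matches does not cover them. Of the 37 promoters, 4 held a match, or 10.8%, against 13.8% of all 35116 promoters of that length, and the pathway promoters had a median of 67.3% G and C, against 58.7% for all. A match describes the letters and is not shown to be a site that is used.

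The 4 were promoters of SP5, DKK1, TCF7 and TCF7L2. SP5 and DKK1 are shown because they held more than 1 match and belong to the feedback and inhibitor genes. The matches of SP5 begin at positions −148, −109 and −84 and those of DKK1 at −95 and −76, where −1 is the last base before the start. Both are the 250 bases before the start on the plus strand, chr2:170715087-170715336 and chr10:52314031-52314280, with the matched letters in capitals.
SP5: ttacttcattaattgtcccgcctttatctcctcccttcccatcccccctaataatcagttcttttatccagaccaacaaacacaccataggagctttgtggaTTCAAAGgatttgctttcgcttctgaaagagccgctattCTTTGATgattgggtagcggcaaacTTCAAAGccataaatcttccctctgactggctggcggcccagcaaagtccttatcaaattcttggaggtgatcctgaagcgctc
DKK1: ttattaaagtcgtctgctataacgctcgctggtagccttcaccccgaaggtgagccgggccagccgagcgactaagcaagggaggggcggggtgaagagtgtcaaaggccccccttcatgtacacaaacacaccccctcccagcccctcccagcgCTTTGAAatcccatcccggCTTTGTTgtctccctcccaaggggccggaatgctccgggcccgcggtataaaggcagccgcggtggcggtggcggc
Neither gene parted the groups, and in both STYK1 replicate 1 was the lowest array, as it was for 43.2% of the pathway genes above the floor. TCF7L2, the other measured gene with a match, held it in 1 of its promoters only. It did part the groups, but by less than the distance between its controls, and control replicate 1 was its lowest array.

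The 2 STYK1 arrays differed from each other more evenly over the pathway than the groups did. STYK1 replicate 2 read above STYK1 replicate 1 for 28 of the 37 genes above the floor, or 75.7%, against 45.8% of all 13871 genes above it, with a median distance of 0.16 log2 units for the pathway and −0.02 for all genes. Control replicate 1 read above control replicate 2 for 19 of the 37. STYK1 replicate 1 was the lowest of the 4 arrays for 16 genes, or 43.2%, against 23.6% of all genes above the floor, and STYK1 replicate 2 was the highest for 15, or 40.5%, against 22.9%.

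All 5 feedback and target genes read higher in STYK1 replicate 2 than in STYK1 replicate 1, by a median of 0.28. For the 37 genes, set against each gene's average of its 4 signals, the deviations had a median of −0.09 in STYK1 replicate 1 and 0.08 in STYK1 replicate 2, against 0.02 and −0.005 in control replicates 1 and 2. Among 10 target genes outside the 44 these medians were −0.08 in STYK1 replicate 1 and −0.09 in STYK1 replicate 2, and STYK1 replicate 2 was the highest for 1 gene. Among 7 hepatocyte genes they were −0.06 and −0.035. Among 13 nuclear cofactors they were −0.11 and 0.13, and STYK1 replicate 2 was the highest for 9, or 69.2%. For 24 of the 37 genes the 2 STYK1 arrays lay farther apart than the group means did, as for 61.1% of all genes above the floor. The median difference over the 41 genes changed sign with single arrays of either group. It rose to 0.06 when STYK1 replicate 1 was dropped and to 0.004 when control replicate 1 was. Dropping STYK1 replicate 2 gave −0.09, and dropping control replicate 2 gave −0.04. With all arrays it was −0.02, smaller in size than its SD between replicates of 0.067, so no direction of the pathway is drawn from it. Other properties of the 2 STYK1 arrays that could move with the distance between them, such as a batch, cannot be read from the labels and their part was not tested.

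**Figure D3:**
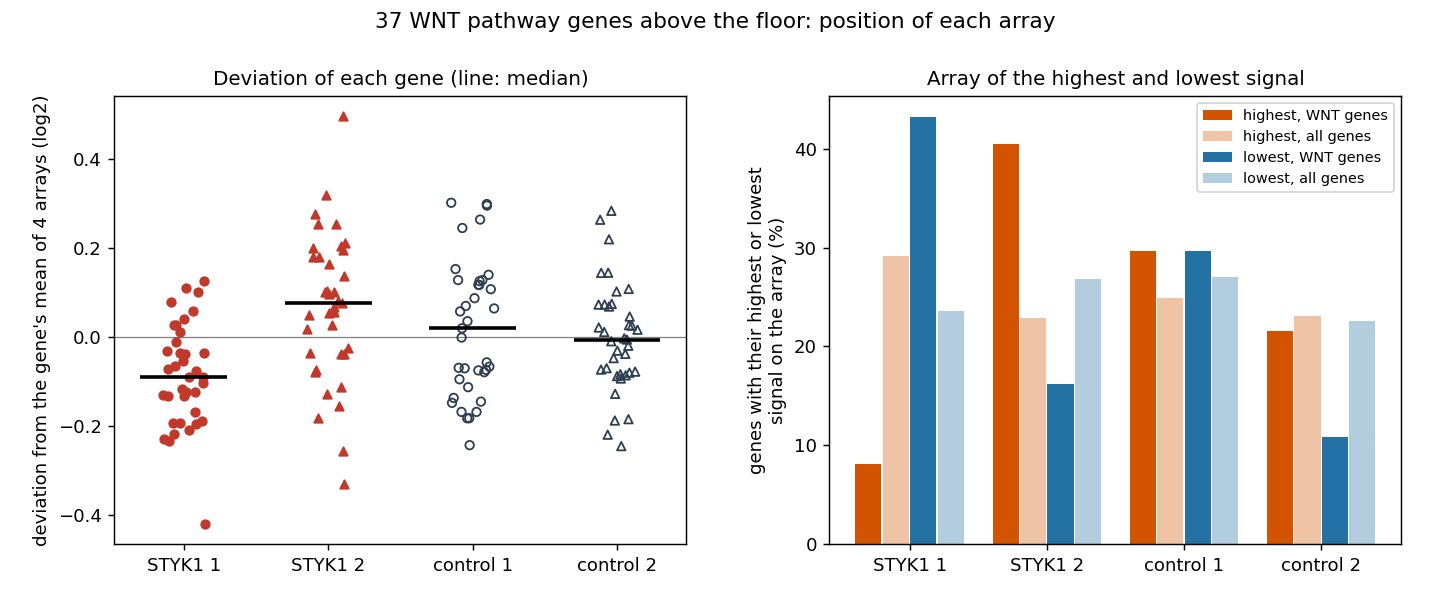
Left, the deviation of each of the 37 pathway genes above the floor from its own average of the 4 arrays, in log2 units, with a line at the median of each array; right, the percent of pathway genes and of all genes above the floor that have their highest or lowest signal on each array. STYK1 replicate 1 holds the lowest signal of 43.2% of the pathway genes and STYK1 replicate 2 the highest of 40.5%.

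The rest of the pathway was read from 7 further lists, which together held 95 other measured genes, 70 of them above the floor on at least 1 array. None of the 95 passed (limma, adjusted p of 0.98 or more), and PYGO2 and PPARD, both lower in the STYK1 arrays, had an unadjusted p under 0.05, where 4.64% of all probe sets did. A second probe set of TNKS, a tankyrase that marks AXIN for degradation, also did and was higher, at 2.16 and 2.69 in the STYK1 arrays against 1.92 and 1.40 in the controls, a difference of 0.77 (limma, unadjusted p = 0.0328, adjusted p = 0.98), while the TNKS probe set with the higher mean differed by −0.08, so the direction of TNKS is uncertain. Of the 95, 43 were higher and 52 lower, with a median difference of −0.01, and over all genes 11375 were higher and 11019 lower. From each list the genes above the floor with the smallest unadjusted p are given.

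WNT ligands were mostly at background, with 13 of 19 above the floor on some array and 4 on all. WNT3 read 1.03 and 1.21 in the STYK1 arrays, against 1.16 and 1.84 in the controls, where control replicate 2 alone stood apart, and its other 2 probe sets differed by 0.11 and 0.03 in the opposite direction. WNT8B lay at the floor, at 0.600 and 0.676 in the STYK1 arrays against 0.757 and 0.888 in the controls. Among other receptors and R-spondins 8 of 11 were above the floor, and ROR1, a receptor of WNT5A, read 1.37 and 1.22 in the STYK1 arrays, against 1.71 and 1.31 in the controls, with overlap. LGR6 was above the floor on 1 control array only. Of 8 other secreted inhibitors SOST and SFRP5 rose above the floor, on 1 array each.

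Among 20 other regulators of beta-catenin 17 were above the floor, 10 of these higher and 7 lower. SIAH1, a ubiquitin ligase that can degrade beta-catenin, read 2.23 and 2.06 in the STYK1 arrays, against 1.92 and 1.83 in the controls, a difference of 0.27 without overlap (limma, unadjusted p = 0.0532, adjusted p = 0.98). CSNK1G1, a CK1 gamma kinase, read 1.71 and 1.67 in the STYK1 arrays, against 2.21 and 1.88 in the controls. A second probe set of CSNK1G1 went the opposite way, at 1.73 and 1.56 in the STYK1 arrays against 1.47 and 1.48 in the controls, so the direction of this gene is uncertain.

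Of 14 nuclear cofactors 13 were above the floor. PYGO2, which links beta-catenin and BCL9 to methylated histone H3, had the largest difference of these lists when each gene is read from its probe set with the highest mean, at 1.85 and 1.98 in the STYK1 arrays against 2.27 and 2.70 in the controls. Both STYK1 arrays lay below both controls, by 0.57 log2 units with a standard error of 0.17 (limma, unadjusted p = 0.0213, adjusted p = 0.98). CREBBP, a histone acetyltransferase that beta-catenin recruits, read 5.97 and 6.03 in the STYK1 arrays, against 5.88 and 5.81 in the controls.

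Of the target genes outside the 44, 10 were above the floor, 3 higher and 7 lower with a median of −0.04, and none passed. Over all genes above the floor 7084 were higher and 6787 lower, with a median of 0.004. PPARD, a nuclear receptor gene, read 1.85 and 1.95 in the STYK1 arrays, against 2.22 and 2.29 in the controls, a difference of −0.36 without overlap (limma, standard error 0.093, unadjusted p = 0.0137, adjusted p = 0.98). CCND1, the gene of cyclin D1, read 5.24 and 5.26 in the STYK1 arrays, against 5.46 and 5.42 in the controls, a difference of −0.20 (limma, unadjusted p = 0.0713, adjusted p = 0.98). Of the 9 hepatocyte genes that depend on beta-catenin 7 were above the floor, 1 higher and 6 lower, with a median of −0.08, and none passed. SLC1A2, a glutamate transporter, read 1.47 and 1.23 in the STYK1 arrays, against 1.67 and 1.61 in the controls, and NR1I3, the receptor CAR, lay at the floor.

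**Figure D4:**
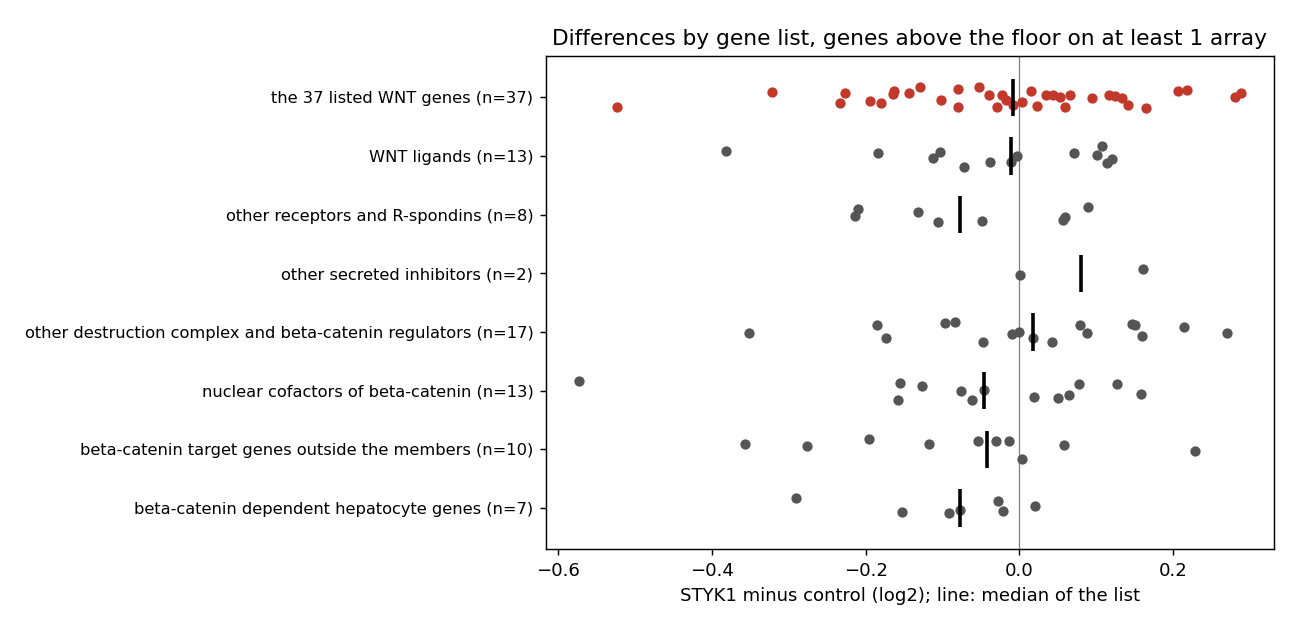
STYK1 minus control difference, in log2 units, of each gene above the floor on at least 1 array, for the 37 pathway genes and 7 further lists, with a line at each median. The points of each list lie on both sides of 0 or beside it, with each gene read from its probe set with the highest mean, and PYGO2, at −0.57, is the lowest.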

How the data were processed

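Huh7 RNA from 2 STYK1 and 2 control samples was measured on arrays. The authors deposited 1 table of log2 signals, 1 column per array; per the submitters' processing notes the tool was the Transcriptome Analysis Console, whose version and normalization, like the genome build, the sources used here do not give. The base of the logarithm was inferred from the values. No further normalization was applied. Near-equal medians do not show how dim signals were treated, and background correction that compresses them would lower their differences.

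Probe sets were named from the platform annotation given for this work. Of 53617, 23871 had 1 symbol, 1842 several and 27904 none here; 22569 of those with 1 symbol matched RefSeq (GRCh38.p14), which updated 90 symbols. A gene is its probe set with the highest mean. Groups, taken from the sample titles, were compared with limma 3.58.1 (R 4.3.3) over all 53617 probe sets, with group as the only term, Benjamini-Hochberg adjustment and a threshold of 0.05, two-sided, with 2 residual and 2.71 prior degrees of freedom. The fit was tested on simulated data.

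Text values follow a rule: 4 signals for each pathway gene above the floor, a p for those at an unadjusted p under 0.05 or parted by at least 0.25, and up to 2 genes per further list. The p-values of LRP6, AXIN2, NOTUM, TCF7L2 and LEF1, the second probe sets of CSNK1G1 and TNKS and the comparison of the STYK1 arrays were added after values were seen. The genes and lists were chosen with earlier results of these data known. Alternatives were a replicate block, a variance trend, quantile normalization, centring, a filter at the floor, gene means and leaving out each array.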

Additional observations from a re-analysis of the deposited data

How the results depend on the processing

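No pathway gene passed an adjusted p under 0.05 (limma) in any of the alternatives that kept all 4 arrays. This says little, since few arrays make the threshold hard to reach. In the reported fit the probe set of STYK1 alone passed, and a probe set that differed by −3.5 log2 units did not. The count at an unadjusted p under 0.05 (limma) was 2 as reported, where 4.64% of all probe sets reached that level. It was 1 with the replicate block (4.16% of all probe sets), 1 with a variance trend (4.69%) and 1 after centring on genes above the floor (4.38%). Among probe sets above the floor it was 1 of 35 (5.26%). FRAT2 was the gene left each time. DVL2, at an unadjusted p of 0.0477 as reported (limma), was the gene that dropped out. The filter keeps fewer probe sets, DVL2 among them. The standard error of DVL2 was 0.121 as reported. It was 0.14 with the filter, 0.161 with the trend, 0.13 after centring and 0.119 with the block. Why the standard errors moved was not tested. Fits without single arrays leave 1 sample in a group, so no p-value or count of genes passing is given for them. With the block 1 residual degree of freedom is left, labels do not say that a number marks a shared culture, and deviations of same-numbered arrays correlated at −0.044, so the numbers were not taken as pairs. FRAT2, DVL2 and CSNK1A1 ranged over the 10 alternatives from −0.59 to −0.46, −0.46 to −0.19 and 0.16 to 0.42. Their constant direction says little, since groups that do not overlap keep their sign when 1 array is left out. The block, the trend, the filter and gene means leave these differences unchanged, and centring moved them by 0.001. In the fits of all 4 arrays their adjusted p-values were at least 0.917 (limma). The median difference was 0.057 without STYK1 replicate 1 and −0.0855 without STYK1 replicate 2, the ends of its range; such fits assume that a lone array varies as the other group does. Averaging probe sets could not change the 41 genes' signals, since each had 1. Signals near the floor limit FZD7, FZD9, TCF7L1, WLS, DKK3, WIF1 and NKD2, and also FZD1, FRAT1 and LEF1.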
